A study of Bos taurus with 6 samples.

Results

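The methylomes of blood monocytes and cultured skin fibroblasts were compared in cattle (Bos taurus) by reduced representation bisulfite sequencing (RRBS). The comparison used 4 of the 6 libraries of the series, 2 from monocytes and 2 from fibroblasts, and left aside the 2 sperm libraries except where their levels are given beside those of the somatic cells. Monocytes had been isolated from the blood of Holstein cows with magnetic beads against CD14, a surface protein of monocytes. Fibroblasts were primary cultures from the ear skin of adult Holstein females and had been grown over successive passages. Each library came from a different animal, and no genotype or treatment distinguished the groups. The monocyte libraries had 12 PCR cycles and the fibroblast libraries 14. Cell type, growth in culture and number of PCR cycles therefore cannot be told apart in these data.

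In mammals, methyl groups are placed on the cytosine of CpG dinucleotides by DNA methyltransferases and copied to the new strand at each cell division. Most CpGs that lie far from other CpGs are methylated in somatic cells, whereas CpGs packed into islands, many of which hold promoters, are mostly unmethylated. Monocytes belong to the myeloid lineage and circulate without dividing, while fibroblasts produce the matrix of connective tissue and divide in culture. In RRBS, the enzyme MspI cuts the DNA at CCGG sites and bisulfite converts unmethylated cytosines, so that the share of unconverted reads gives the methylation of each CpG. The method favours CpG-rich DNA.

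Positions of chromosomes 1 to 29 covered by 5 to 500 reads in all 4 libraries were kept, which left 1725238 of the 2225260 autosomal CpGs present in the 4 libraries. Their median coverage was 17 and 14 reads in monocyte replicates 1 and 2, and 20 and 24 reads in fibroblast replicates 1 and 2. The percentage of a single CpG is therefore coarse, whereas averages over many CpGs carry little counting error. Placement of the CpGs in genes, and the check of each cell type against the methylation of its marker genes, were not analysed here. The smallest p of an exact two-sided permutation test of 2 libraries against 2 is 0.333, so that differences between averages were read against the spread between replicates.

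Monocytes were more methylated than fibroblasts. With every CpG counting equally, monocyte replicates 1 and 2 averaged 54.9% and 54.7%, and fibroblast replicates 1 and 2 averaged 46.8% and 47.2%. Both monocyte libraries lay above both fibroblast libraries, and the group means, 54.8 ± 0.190% and 47.0 ± 0.342% (SD, n = 2 each), differed by 7.80 points (exact two-sided permutation test, p = 0.333). With only the first covered CpG of each kb, which gives CpG-dense DNA less weight, the difference was 15.9 points. Replicate 1 minus replicate 2 was 0.269 points in monocytes and -0.483 points in fibroblasts.

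The distributions differed mainly in CpGs above 80% and in CpGs of intermediate methylation, between 20% and 80%. The intermediate share was 10.99% and 11.4% in the 2 libraries of monocytes, against 26.4% and 26.0% in those of fibroblasts. CpGs above 80% made up 50.3% and 49.7% in monocytes against 33.1% and 33.8% in fibroblasts. The share below 20% was closer between the cell types, at 38.7% and 38.9% in monocytes and 40.5% and 40.2% in fibroblasts. The larger share of intermediate CpGs in fibroblasts was thus accompanied by a smaller share of highly methylated CpGs. Of the CpGs that were intermediate in fibroblast replicate 1, 65.2% were also intermediate in replicate 2. Fully methylated CpGs, at exactly 100%, made up 25.4% and 27.7% in monocytes and 14.4% and 13.2% in fibroblasts, although this share also depends on the coverage.

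**Figure D1:**
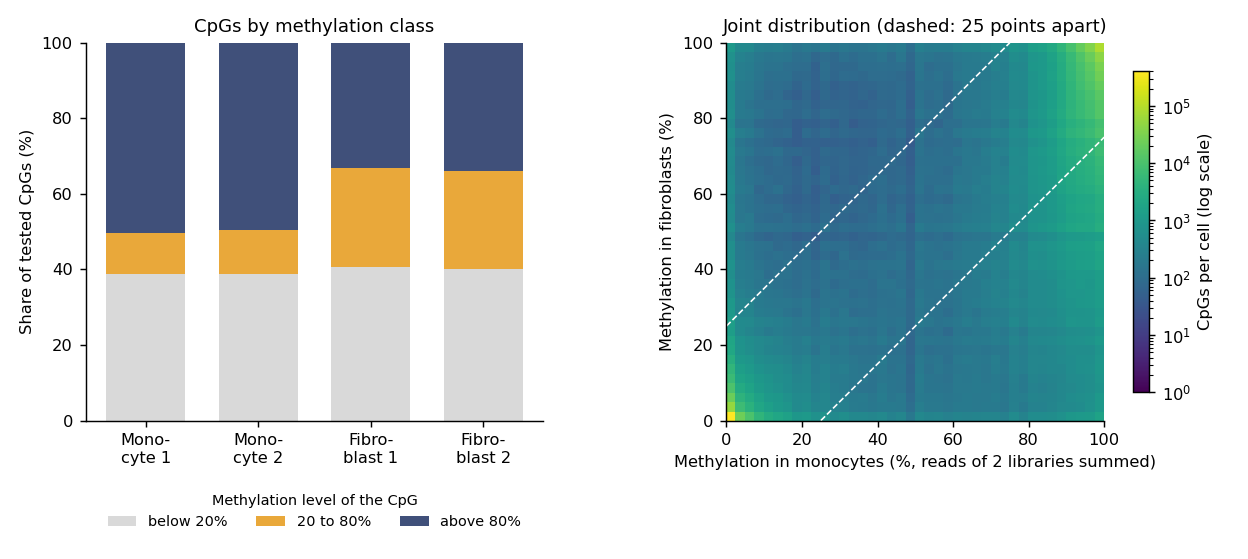
Left, share of the tested CpGs (%) below 20%, from 20 to 80% and above 80% methylation in each of the 4 libraries, as stacked bars: the intermediate class takes 10.99% and 11.4% of the monocyte bars and 26.4% and 26.0% of the fibroblast bars. Right, number of CpGs (colour, log scale) by their methylation in monocytes (horizontal axis, %) and fibroblasts (vertical axis, %), the reads of both replicates being summed: the CpGs gather in the corners and along the right edge, where monocytes are highly methylated and fibroblasts take every level.

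The same CpGs were then classed in both cell types from the reads summed over replicates. CpGs below 20% in both made up 35.5% of all tested CpGs, and CpGs above 80% in both made up 30.5%. The largest class with a difference, 18.4% of all CpGs, was above 80% in monocytes and intermediate in fibroblasts, with mean levels of 93.3% and 59.96%. Of all CpGs that were intermediate in fibroblasts, 69.2% were above 80% in monocytes, 9.51% were below 20% and 21.3% were intermediate. Conversely, 91.7% of the CpGs above 80% in fibroblasts were also above 80% in monocytes. Complete switches were rarer, with 34693 CpGs (2.01%) above 80% in monocytes and below 20% in fibroblasts, and 13916 CpGs (0.807%) in the opposite state.

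Differentially methylated CpGs (DMCs) were called from the summed reads with a logistic regression and its likelihood-ratio test. A DMC had an adjusted p (Benjamini-Hochberg) below 0.01 and differed by at least 25 points. They numbered 289484, or 16.8% of the CpGs tested. Of these, 232657 (13.5% of the CpGs tested) were higher in monocytes and 56827 (3.29%) were higher in fibroblasts, so that monocytes were higher at 80.4% of the DMCs. This test treats reads as independent and leaves out the variation between animals. The edgeR quasi-likelihood test, which estimates that variation from the replicates, called 64958 CpGs at the same thresholds, 3.77% of those tested. Of these, 45939 (2.66%) were higher in monocytes and 19019 (1.10%) in fibroblasts, or 70.7% higher in monocytes. All 64958 were also DMCs of the logistic test. Without monocyte replicate 1, the logistic test called 188405 CpGs, 76.6% of them higher in monocytes.

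The calls between cell types can be set beside calls between replicates. Between replicates, the logistic test called 2814 CpGs (0.163%) in monocytes and 10964 (0.636%) in fibroblasts. Between 1 monocyte and 1 fibroblast library, it called 9.47% to 11.2% of the CpGs. At 98.5% of the DMCs higher in monocytes, both monocyte libraries lay above both fibroblast libraries, and 97.5% of the DMCs higher in fibroblasts were separated in the opposite sense. Over all CpGs tested, both monocyte libraries lay above both fibroblast libraries at 30.3%, and the reverse order held at 9.49%. As the DMCs were called from the same 4 libraries, their separation is largely a consequence of the calls and no independent support for them.

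DMCs higher in monocytes were for the most part highly methylated in monocytes and intermediate in fibroblasts. At these DMCs, the monocyte libraries averaged 89.0% and 88.4% and the fibroblast libraries 36.7% and 37.7%. Fibroblasts were intermediate at 73.3% of them and below 20% at 26.7%. DMCs higher in fibroblasts had the opposite pattern with wider contrast, the monocyte libraries averaging 16.6% and 16.3% and the fibroblast libraries 73.6% and 74.4%. Monocytes were below 20% at 69.1% of these DMCs, and fibroblasts were above 80% at 49.6%.

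From 25 points on, the excess of CpGs higher in monocytes became smaller as the size of the difference grew. Among all CpGs that differed by at least 10 points, whether called or not, those higher in monocytes were 3.86 times as many as those higher in fibroblasts, and at 25 points they were 4.28 times as many (293485 and 68569). The ratio was 3.27 at 50 points, 2.26 at 75 points and 1.86 at 90 points, where 8584 and 4617 CpGs remained. The median absolute difference of the DMCs was 48.1 points for those higher in monocytes and 55.2 points for those higher in fibroblasts. Among CpGs with an adjusted p below 0.01 in the logistic test, 26696 lay just inside the limit, at 25 to 30 points, and 83.9% of them were higher in monocytes. Just outside it, at 20 to 25 points, there were 19453, of which 82.0% were higher in monocytes.

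The difference depended on how densely CpGs were packed. The local density of a CpG was the number of tested CpGs within 500 bp on either side, itself included. CpGs with no tested neighbour in this window were methylated at 84.8% and 84.4% in monocytes and at 63.1% and 64.6% in fibroblasts. The difference between the means was 20.8 points for these CpGs, 16.5 points for 2 to 5 CpGs, 12.6 points for 6 to 10 and 8.96 points for 11 to 20. It was 3.88 points for 21 to 40 CpGs and 0.257 points for 41 to 60, where the 4 libraries lay between 15.3% and 15.7% and the groups overlapped. In the densest class, with 61 to 112 CpGs, monocytes were at 8.49% and 8.22%, below both fibroblast libraries with 8.72% and 8.86%. The excess in monocytes was thus concentrated at sparse CpGs, while the mostly unmethylated dense CpGs differed little on average.

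The balance of the DMCs shifted with density as well. DMCs higher in monocytes made up 28.4% of the CpGs without a neighbour and 1.47% of those in the densest class. In the same classes, DMCs higher in fibroblasts were 2.92% and 1.21% of the CpGs, and were most frequent at 11 to 20 CpGs, at 4.09%. As a share of all DMCs, those higher in fibroblasts went from 9.33% in the sparsest class to 45.1% in the densest. With the edgeR test this share was 15.3% in the sparsest class, 45.6% at 41 to 60 CpGs and 41.5% in the densest class. The median density was 18 for all CpGs tested, 10 for DMCs higher in monocytes and 14 for DMCs higher in fibroblasts.

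**Figure D2:**
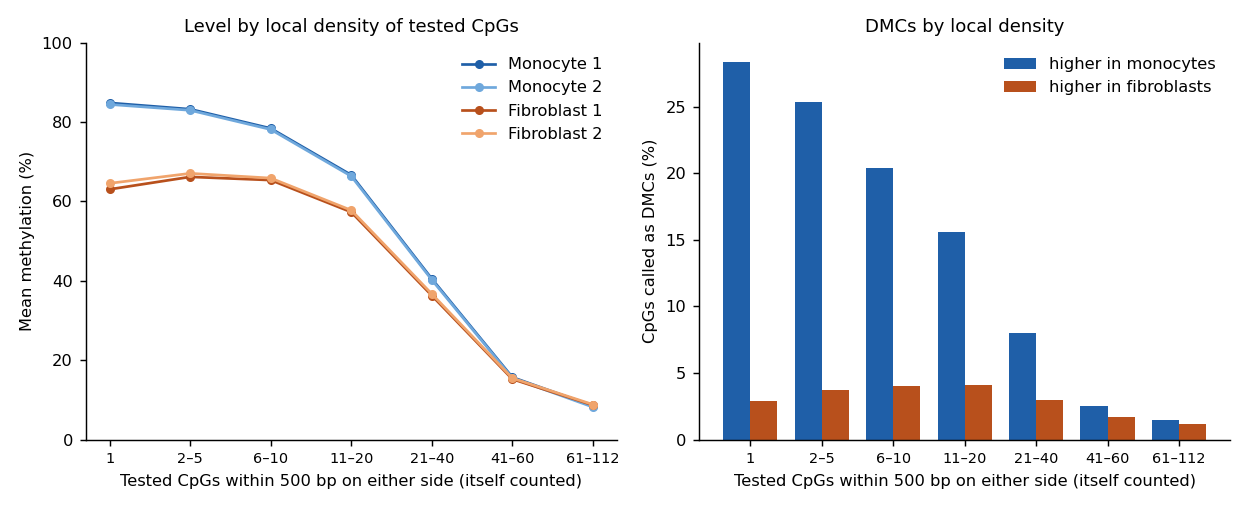
Left, mean methylation (%) of each of the 4 libraries (points joined by lines) by the number of tested CpGs within 500 bp on either side: the cell types are 20.8 points apart at CpGs without a tested neighbour, and their curves meet at 41 to 60 CpGs. Right, share of the CpGs (%) called as DMCs in the same classes: bars for DMCs higher in monocytes fall from 28.4% to 1.47%, and bars for DMCs higher in fibroblasts stay between 1.21% and 4.09%.

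The direction was shared by all autosomes. On each of the 29 chromosomes, both monocyte libraries had a higher mean than both fibroblast libraries, and more DMCs were higher in monocytes than in fibroblasts. The edgeR calls were also more often higher in monocytes on all 29. The difference of the means was smallest on chromosome 10, at 5.91 points, and largest on chromosome 4, at 10.3 points, with a median of 7.74 points. On chromosome 10, monocytes were at 42.0% and 41.6% and fibroblasts at 35.7% and 36.1%. On chromosome 4 they were at 55.3% and 55.1% against 44.6% and 45.1%.

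Chromosome 4 combined the highest share of DMCs higher in monocytes (16.0% of its CpGs) with the lowest share of DMCs higher in fibroblasts (2.08%). Chromosome 10 had the lowest share of DMCs higher in monocytes (10.2%) and, at 12.6%, the lowest share of DMCs of both directions, while chromosome 29 had the highest (19.1%). Chromosome 17 had the highest share of DMCs higher in fibroblasts, at 4.36%, and monocytes were higher at only 74.5% of its DMCs against 88.5% on chromosome 4. The same chromosomes were the extremes with the edgeR test, at 58.4% and 85.6%. Among sparse CpGs alone, with at most 10 tested CpGs in the window, the difference ranged from 12.3 points on chromosome 23 to 17.4 points on chromosome 4. Chromosomes of one library are not replicates, and these values are a description of the 4 libraries.

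**Figure D3:**
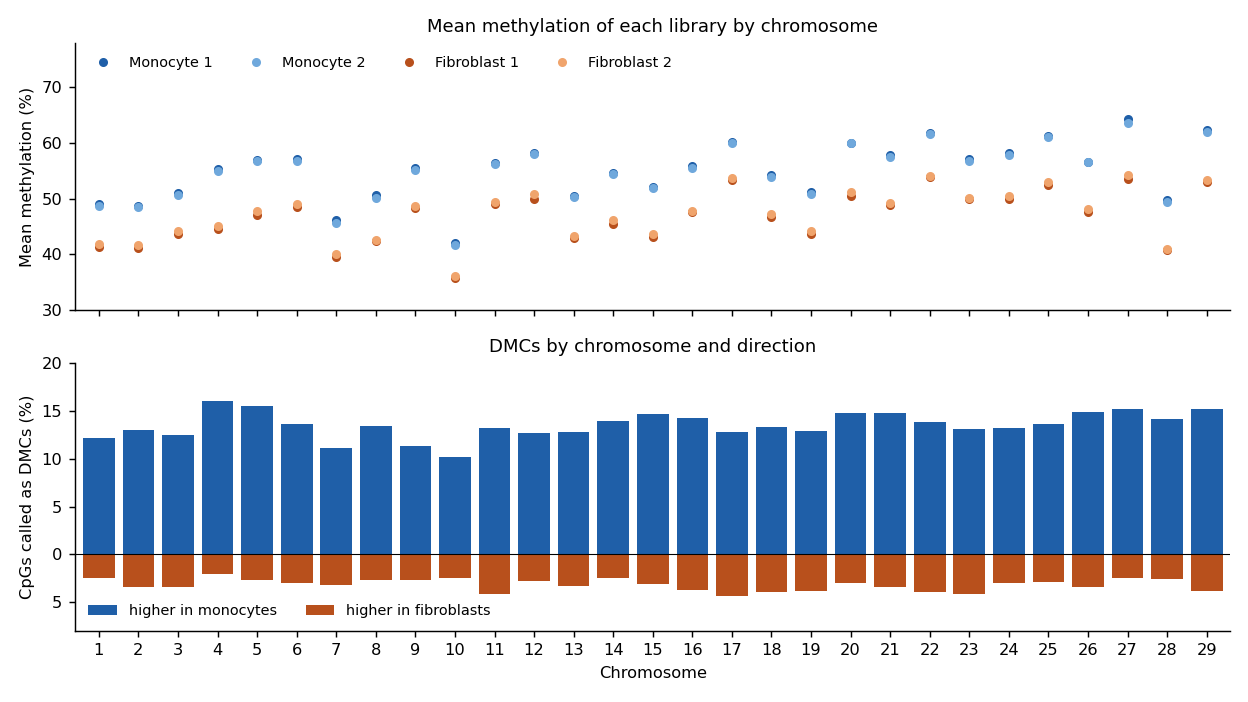
Top, mean methylation (%) of each of the 4 libraries (points) on chromosomes 1 to 29, on an axis that does not start at 0: the monocyte points lie above the fibroblast points on all 29 chromosomes. Bottom, share of each chromosome's CpGs (%) called as DMCs, with DMCs higher in monocytes drawn upwards and DMCs higher in fibroblasts drawn downwards: the upward bars range from 10.2% to 16.0% and the downward bars from 2.08% to 4.36%.

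Along the chromosomes, the difference varied from megabase to megabase. Of 1984 windows of 1 Mb with at least 100 tested CpGs, 1847 (93.1%) had a higher mean in monocytes. Both monocyte libraries lay above both fibroblast libraries in 1797 windows, and the reverse held in 96. The median difference was 6.16 points, and its SD between windows was 6.10 points, against 0.851 points for the difference between the monocyte replicates and 1.48 points for that between the fibroblast replicates. Adjacent windows resembled each other weakly (Pearson's r = 0.273 over 1686 pairs of adjacent windows of the same libraries).

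The 3 windows with the largest excess in monocytes were on chromosomes 25 and 13. Between 6 and 7 Mb of chromosome 25, the monocyte libraries averaged 81.1% and 80.2% and the fibroblast libraries 45.9% and 43.8%. The difference was 35.8 points over 239 CpGs, of which 116 were DMCs higher in monocytes and none was a DMC higher in fibroblasts. The windows at 71 to 72 Mb of chromosome 13 (33.7 points) and 24 to 25 Mb of chromosome 25 (32.3 points) followed. In these 3 windows, 61.9%, 79.0% and 86.9% of the tested CpGs were sparse, against a median of 31.3% over the chromosomes.

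The 3 windows with the largest excess in fibroblasts went against the direction of the autosomes. Between 24 and 25 Mb of chromosome 3, the monocyte libraries averaged 18.7% and 19.5% and the fibroblast libraries 39.9% and 41.1%, and 88 of the 284 CpGs were DMCs higher in fibroblasts. The difference, monocytes minus fibroblasts, was -21.4 points there, -19.6 points at 95 to 96 Mb of chromosome 7 and -14.9 points at 61 to 62 Mb of chromosome 11. In these 3 windows, 21.5% to 26.0% of the tested CpGs were sparse.

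DMCs of both directions were clustered. After a DMC higher in monocytes, the next tested CpG was a DMC of the same direction in 60.9% of the cases when it lay 2 to 10 bp away, against 7.59% of all pairs at this distance. This share was 50.5% at 51 to 100 bp and 32.4% between 500 and 1000 bp. Beyond that it stayed between 31.0% and 32.8%, against 23.3% to 24.1% of all pairs, up to the largest distances. After a DMC higher in fibroblasts, the share was 73.4% at 2 to 10 bp, against 2.91% of all pairs, and fell to 17.9% between 500 and 1000 bp, 5.58% between 5 and 20 kb and 4.0% beyond. Over all pairs it was 3.30%, 3.04% and 1.89% at these distances. The ratio to all pairs was thus 2.12 at the largest distances, against 1.36 for DMCs higher in monocytes, and it was the larger of both at every distance. Neighbours a few base pairs apart were read on the same DNA fragments, and the part of these shared reads in the similarity at short range was not tested.

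Neighbouring DMCs rarely disagreed in direction at short range. At 2 to 10 bp, 0.128% of the DMCs higher in monocytes were followed by a DMC higher in fibroblasts, and 0.319% of the DMCs higher in fibroblasts by one higher in monocytes. For the difference itself, Pearson's r between neighbouring CpGs was 0.810 at 2 to 10 bp, 0.146 at 1 to 5 kb and 0.152 beyond 20 kb, as a description over CpGs of the same 4 libraries. The difference between the monocyte replicates had an r of 0.254 at 2 to 10 bp and 0.000831 at 1 to 5 kb.

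**Figure D4:**
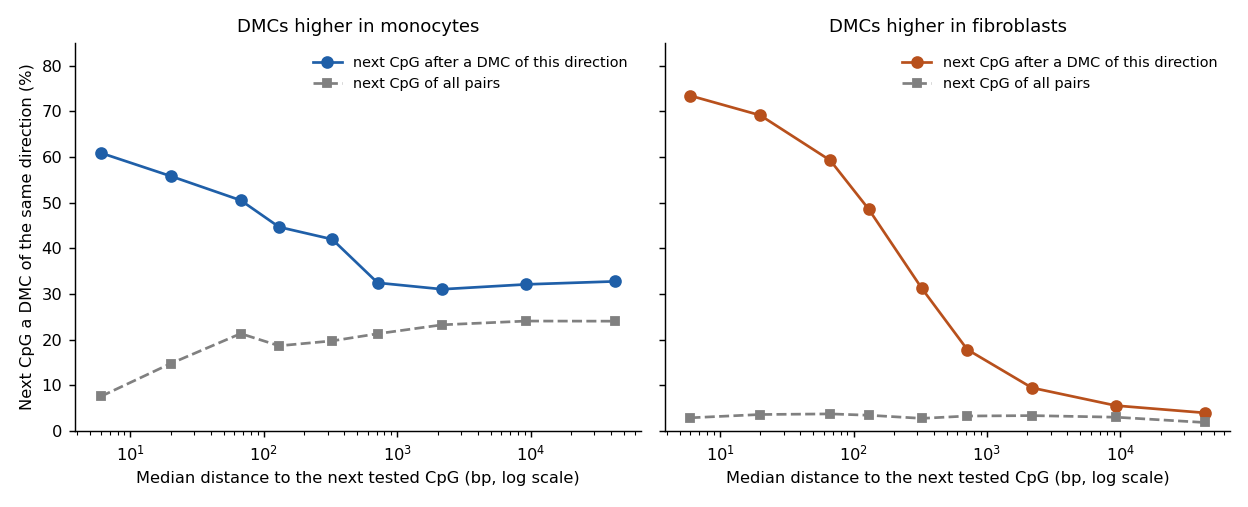
Share of the next tested CpGs (%) that are DMCs of the same direction, by the median distance to that CpG (bp, log scale), after a DMC (circles) and over all pairs of neighbouring CpGs (squares), for DMCs higher in monocytes (left) and in fibroblasts (right). After DMCs higher in monocytes the curve levels off near 32% and stays above the squares; after DMCs higher in fibroblasts it falls from 73.4% to 4.0% and also stays above the squares, which end at 1.89%.

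Runs of at least 5 DMCs of one direction, successive DMCs at most 1000 bp apart with none of the opposite direction in between, were taken as regions. There were 13551 regions higher in monocytes and 3427 higher in fibroblasts, which held 54.7% and 66.0% of the DMCs of their direction. Isolated DMCs made up 12.3% and 11.6%. Regions higher in fibroblasts were more compact, with a median span of 260 bp and 28.6 bp per DMC, against 477 bp and 56.5 bp for those higher in monocytes. Of the tested CpGs inside, 71.6% and 52.5% were DMCs. As the regions were built from the calls, these figures are a description.

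The levels in the regions showed the same asymmetry as single CpGs. Over all tested CpGs inside, the median region higher in monocytes was at 91.5% in monocytes and 49.5% in fibroblasts. The median region higher in fibroblasts was at 11.7% in monocytes and 74.9% in fibroblasts. The mean of the less methylated cell type was below 20% in 16.6% of the regions higher in monocytes and in 66.6% of those higher in fibroblasts. A full contrast, one cell type below 20% and the other above 80%, was found in 1262 and 620 regions. With the edgeR test, the regions numbered 2308 and 1185. They numbered 7760 and 2621 with the logistic test when monocyte replicate 1 was left out.

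Regions of both directions lay close to each other in places. Of 4558 pairs of neighbouring regions within 5 kb, 1054 (23.1%) had opposite directions, 3138 were both higher in monocytes and 366 both higher in fibroblasts. The number of regions per window of 1 Mb was uneven, and was not adjusted for the number of tested CpGs in a window. Windows at 119 to 120 Mb of chromosome 5 and 106 to 107 Mb of chromosome 11 held 115 regions higher in monocytes each, against a median of 3 per window with any. For regions higher in fibroblasts, the window at 11 to 12 Mb of chromosome 18 had the most, with 35, against a median of 2. The last 10% of each chromosome's length, at its high-coordinate end, held 33.8% of the tested CpGs and 42.4% and 41.5% of the regions of either direction.

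The region with the most DMCs higher in monocytes spanned chr5:117093989-117099337 (UMD3.1), with 101 DMCs among 103 tested CpGs. The monocyte libraries averaged 92.3% and 94.9% and the fibroblast libraries 3.86% and 6.46%, the groups being far apart. The difference was 88.4 points, with SDs of 1.81 and 1.84 points. Of the 36 tested CpGs within 3000 bp on either side, 32 were also DMCs higher in monocytes, with means of 96.9% and 96.9% in monocytes and 1.56% and 2.53% in fibroblasts. The other 4, at the far end of one flank, were not called, and fibroblasts were at 89.1% and 80.3% there. Sperm was methylated inside the region, at 98.6% and 95.9%.

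The region with the most DMCs higher in fibroblasts, at chr6:113621848-113626703, had 117 DMCs among 143 tested CpGs. The monocyte libraries averaged 6.59% and 6.36% and the fibroblast libraries 57.5% and 52.3%. Its flanks had little methylation in either cell type, the 119 tested CpGs within 3000 bp being at 2.74% and 2.60% in monocytes and 3.74% and 5.20% in fibroblasts. Inside the region, 22 of the 143 CpGs were above 20% in at least 1 monocyte library, with a highest value of 71.4%.

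**Figure D5:**
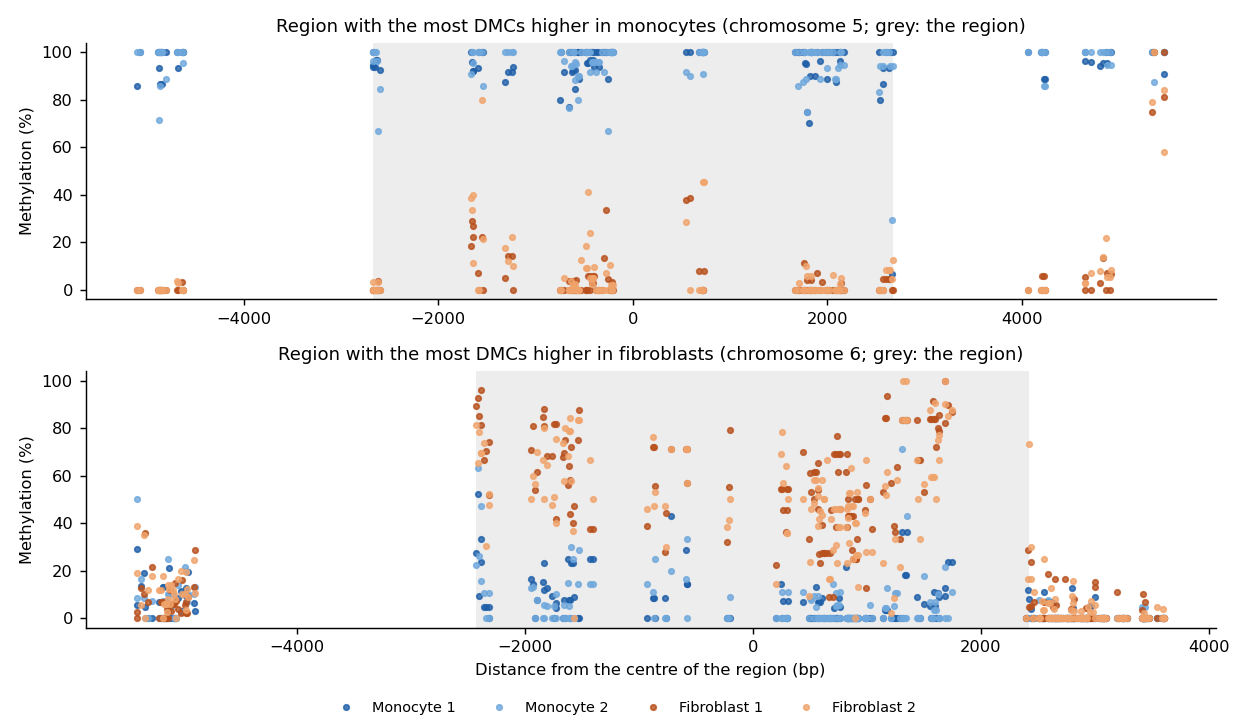
Methylation (%) of each tested CpG in each of the 4 libraries (points) by distance from the centre (bp) of the region with the most DMCs higher in monocytes (top) and higher in fibroblasts (bottom), with 3000 bp on either side and the region in grey. In the top panel the fibroblast points stay low at 32 of the 36 CpGs outside the region and are high at the last 4 on the right, while in the bottom panel the 4 libraries average 2.60% to 5.20% outside it.

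The other regions were chosen by rank, as the 10 with the most DMCs of each direction and, among regions with at least 20 DMCs, the 5 of each direction with the largest difference. In all 30, both libraries of one cell type lay above both of the other. This held for 99.9% of all regions of either direction and follows from the calls, which used the same libraries. The edgeR test called between 10 and 91 CpGs of the same direction in each of them, or 11.6% to 100% of the DMCs of a region. It called 91 of the 101 DMCs of the leading region on chromosome 5 but 23 of the 117 of the leading region on chromosome 6.

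Some of the regions higher in monocytes were unmethylated in sperm. At chr25:26847418-26848118, all 83 tested CpGs were DMCs, with 98.4% and 94.2% in monocytes, 13.1% and 10.3% in fibroblasts and 0.857% and 1.05% in sperm. At chr11:78270355-78272118, with 79 DMCs, monocytes were at 87.4% and 89.4%, fibroblasts at 24.0% and 20.8%, and sperm at 0.719% and 1.01%. At chr10:89246033-89247494, with 73 DMCs, monocytes reached only 43.8% and 45.0%, against 3.26% and 4.79% in fibroblasts.

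The largest differences were near the full range. At chr4:69390072-69390506, 29 CpGs averaged 97.0% and 97.1% in monocytes and 1.73% and 1.63% in fibroblasts, a difference of 95.4 points that was the largest of the regions with at least 20 DMCs. At chr3:101990902-101991245, 22 CpGs were at 98.1% and 98.6% against 3.55% and 3.03%. At chr3:117498910-117500109, 20 CpGs were at 96.1% and 94.5% against 0.250% and 0.192%. The coverage summed over these CpGs was 431 and 479 in the fibroblast libraries, with 1 methylated observation in each. A read that covers several CpGs counts once at each of them. In all 3 the values of the replicates of a cell type lay within 2 points of each other.

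The fibroblast replicates differed more in some regions. At chr22:59508429-59512653, with 78 DMCs, monocytes were at 90.4% and 91.2% and fibroblasts at 32.6% and 50.0%, an SD of 12.3 points. At chr3:118645043-118648785, with 83 DMCs, the fibroblast libraries were at 10.5% and 22.1%, and the monocyte libraries at 89.8% and 90.3%. The differences between the cell types were 49.5 and 73.8 points in these regions. The edgeR test called 29 of the 78 DMCs of the region on chromosome 22 and 63 of the 83 of the region on chromosome 3.

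Among the regions higher in fibroblasts, 3 of the 10 with the most DMCs lay between 74 and 75 Mb of chromosome 17. At chr17:74533897-74536100, with 96 DMCs, the monocyte libraries were at 15.7% and 29.7%, the widest spread between monocyte replicates of all 30 regions, and fibroblasts were at 84.9% and 83.4%. At chr17:74530386-74532300, less than 2 kb before it, a region with 81 DMCs among 102 tested CpGs averaged 3.49% and 2.75% in monocytes against 71.9% and 62.8% in fibroblasts over all of these CpGs. At chr17:74837271-74841006, with 74 DMCs, the values were 18.0% and 16.97% against 51.6% and 55.5%. This window held 31 regions higher in fibroblasts and 73 higher in monocytes, counts that were likewise not adjusted for its number of tested CpGs.

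Other regions higher in fibroblasts were nearly switched from unmethylated to methylated between the cell types. At chr20:69480669-69483087, all 83 tested CpGs were DMCs, with 8.003% and 9.06% in monocytes and 88.6% and 93.4% in fibroblasts. At chr2:108102899-108103960, with 81 DMCs, the values were 1.26% and 1.63% against 81.6% and 76.5%. At chr19:9526883-9528908, the monocyte libraries had no methylated observation over 31 CpGs, at a summed coverage of 523 and 414. The fibroblast libraries were at 86.5% and 86.0% in this region. At chr11:104042375-104043096, 28 CpGs gave the largest difference in this direction, -89.4 points, with 6.99% and 2.07% in monocytes and 92.5% and 95.3% in fibroblasts. The window at 24 to 25 Mb of chromosome 3, which had the largest excess in fibroblasts, contained chr3:24217351-24217965, where 34 CpGs were at 1.70% and 5.18% in monocytes and 87.6% and 92.2% in fibroblasts.

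Sperm did not enter the choice of these CpGs and gave a reference outside the somatic lineages. At DMCs higher in monocytes the sperm libraries averaged 76.9% and 76.3%, at DMCs higher in fibroblasts 63.5% and 63.1%, and at the other tested CpGs 44.5% and 44.1%. Sperm was above 80% at 73.7% of the DMCs higher in monocytes and at 60.5% of those higher in fibroblasts. With the edgeR calls, the mean sperm level was 73.0% at CpGs higher in monocytes and 71.2% at CpGs higher in fibroblasts, so that most of the gap between the directions depended on the test. For both directions and with both tests, the sperm level was above that of the CpGs not called by the logistic test. The level at CpGs not called by edgeR was not computed. However, CpGs below 20% in both cell types (35.5% of the tested CpGs) or above 80% in both (30.5%) could not be DMCs. They are all among the other CpGs, so that this comparison was not matched for the somatic level.

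Among the regions, the level in sperm went with the number of DMCs, most of all for those higher in fibroblasts. Of the regions higher in fibroblasts with 5 to 9 DMCs and at least 5 CpGs covered in sperm, 27.2% had a sperm mean below 20%. The share was 29.7% at 10 to 19 DMCs, 43.4% at 20 to 49 and 73.0% (27 of 37) at 50 or more. For regions higher in monocytes, it was 17.1% at 5 to 9 DMCs and 45.7% (21 of 46) at 50 or more. Regions with more DMCs were thus more often below 20% in sperm in both directions. Among the single CpGs not called, 52.7% were below 20% in sperm. That is a share of CpGs and not of region means, and is therefore no baseline for the regions. Among the 10 regions with the most DMCs, sperm was below 20% in 3 of those higher in monocytes and 8 of those higher in fibroblasts.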

How the data were processed

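RRBS libraries of 2 monocyte, 2 fibroblast and 2 sperm samples, each from a different animal, were assigned to cell types from the labels. The authors trimmed the reads with Trim Galore 0.3.7, mapped 75 bp pairs of MspI fragments of 40 to 290 bp on UMD3.1 with Bismark 0.14.3, and deposited, for each CpG and library, its coverage, as counts of reads mapped uniquely. The deposited percent of methylated reads is cut to 1 decimal. Methylated reads were recovered as coverage times this percentage, rounded to the nearest whole number, which lay within 0.1% of the coverage. Without molecular identifiers, reads are not independent molecules.

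CpGs of chromosomes 1 to 29 covered by 5 to 500 reads in the 4 libraries were tested by logistic regression (likelihood-ratio test on the summed reads, as in methylKit), with Benjamini-Hochberg adjustment below 0.01 and a difference of at least 25 points. The edgeR model (4.0.16, common dispersion 0.128 from 50000 CpGs) used the methylated and unmethylated counts of each library. Both tests were tested on simulated data in which the replicates of a cell type had the same level at each CpG. This check therefore does not cover variation between animals. Sperm levels were taken at CpGs covered by 5 to 500 reads in all 6 libraries. Regions, windows and chromosomes were named by rank, as stated with them. The members, thresholds and rules were chosen with earlier results of these data known. Coverage summed over all CpGs was 45884839 to 78890776 per library, a read counting once at each CpG it covers. Genes, promoters and repeats were not analysed here, as no annotation of UMD3.1 was used. The alternatives were other limits of coverage, other thresholds, other tests, other definitions of a region and leaving out each library. Python 3.11.15, numpy 2.4.6, scipy 1.17.1, pandas 2.3.3, matplotlib 3.10.9 and R 4.3.3 were used.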

Additional observations from a re-analysis of the deposited data

How the results depend on the processing

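No alternative turned a direction: monocytes stayed more methylated, had the smaller intermediate share and were higher on all 29 chromosomes wherever these were recomputed. For these levels the outcome of leaving out 1 library was fixed, as both monocyte libraries lay on the same side of both fibroblast libraries. Counts of DMCs and regions depend on the test and the depth, and with 2 animals per cell type the variation between animals is known only roughly. Reads of both strands of a CpG could not be summed, because no 2 tested positions lay 1 bp apart.

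Leaving out 1 library gave a mean difference of 7.56 to 8.04 points, a difference in the intermediate share of -15.2 to -14.7 points, 188405 to 252993 DMCs, 76.6% to 80.3% of them higher in monocytes, 10381 to 14498 regions and a neighbour concordance of 55.3% to 57.7%. The neighbour concordance is the share of DMCs whose next tested CpG, 2 to 100 bp away, was a DMC of the same direction, and was 59.3% with all 4 libraries. For the counts, monocyte replicate 1 mattered most: without it the DMCs numbered 188405 and the regions 10381, against 289484 and 16978, and 62.5% of the DMCs were still called in the same direction. The signs of all 30 named regions held without each library. This outcome was fixed, as both libraries of one cell type lay above both of the other in each region.

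A minimum coverage of 10 gave a mean difference of 6.99 points, a difference in the intermediate share of -14.4 points and a concordance of 61.4%. A minimum of 20 gave 5.78 points, -14.2 points, 44206 DMCs (77.0% higher in monocytes), 2050 regions and a concordance of 62.5%. With 1 CpG per kb the mean difference was 15.9 points, with 52336 DMCs, 87.8% of them higher in monocytes. Weighting by coverage gave 9.58 points, and classes split at 10% and 90% gave an intermediate share difference of -16.4 points.

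Dividing the statistic by 1 dispersion factor over all CpGs (1.68) left 185601 DMCs, 77.9% higher in monocytes, 10377 regions and a concordance of 59.5%. The edgeR test gave 64958 DMCs, 70.7% higher in monocytes, 3493 regions, a concordance of 59.1% and, chosen after seeing the data, a sperm level of 73.0% and 71.2% at its CpGs higher in monocytes and in fibroblasts, against 76.6% and 63.3%. A difference of at least 50 points gave 141982 DMCs, 76.5% higher in monocytes, 7396 regions and a concordance of 58.5%. Regions of at least 10 DMCs numbered 5407. The concordance was 59.6% with a maximum coverage of 100, 59.9% with Fisher's exact test, 59.4% with an adjusted p below 0.05 and 59.8% with a difference of at least 10 points.

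Same-numbered libraries showed no shared deviation from their group means, the deviations having a correlation of -0.00413 over CpGs. This value does not tell whether same-numbered libraries were processed together. With the replicate number as a block (Cochran-Mantel-Haenszel test), there were 257345 DMCs, 79.5% of them higher in monocytes, 14993 regions and a concordance of 59.9%.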

Other observations

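The X chromosome was left out of the comparison and was examined separately at 41458 CpGs covered by 5 to 500 reads in the 4 libraries, all from females. Monocytes were also more methylated there, with 56.3% and 55.8% against 43.3% and 43.5% in fibroblasts, a difference of 12.7 points. Of the X-linked CpGs, 42.5% and 43.5% were intermediate in monocytes and 54.8% and 54.1% in fibroblasts, above the share of the same libraries on the autosomes. In female cells one X chromosome is inactivated and methylated at many CpG islands. DMCs higher in monocytes made up 16.4% of the X-linked CpGs and DMCs higher in fibroblasts 0.979%, whereas on the autosomes the latter made up 3.29%. At X-linked CpGs with more than 20 tested CpGs in the window, monocytes were at 37.4% and 36.9% and fibroblasts at 33.0% and 32.6%, against 31.1% and 30.8%, and 28.3% and 28.6%, at autosomal CpGs of this density. Whether the X chromosome differed from the autosomes in its difference between the cell types was not tested.

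Coverage moved with the level, but not in 1 direction. In monocyte replicate 1 the mean was 63.4% at CpGs with a mean coverage of 5 to 10 reads over the 4 libraries, 58.4% at 10 to 20, 52.1% at 20 to 30 and 38.5% at 30 to 50, and the difference between the cell types went from 9.43 to 5.97 points over these classes. It was 17.8 points at 50 to 100 reads (9573 CpGs). At CpGs with a mean coverage of 100 reads or more over the 4 libraries (12641 CpGs), monocytes were at 81.1% and 80.3% and fibroblasts at 64.5% and 64.1%, and 22.3% of these CpGs were DMCs higher in monocytes against 0.111% higher in fibroblasts. The part of repeated sequences in this class was not tested. The tested CpGs at exactly 0% in all 4 libraries numbered 332873, or 19.3%.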
